A study of Mus musculus with 64 samples.

Results

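The neurotrophin genes Bdnf and Ntf3 and the receptor genes Ntrk2, Ntrk3, Ngfr and Sort1 were followed through a set of 64 mouse hippocampus libraries. These 6 genes were chosen by symbol among the 32227 genes of the count table. All 6 passed the filter on low counts, as did 17382 genes in all. The libraries came from 8 inbred strains, each with 4 female and 4 male samples. C57BL/6J is the strain of the mouse reference genome, and 129S1/SvImJ and A/J are other classical laboratory strains. NOD/ShiLtJ is used as a model of autoimmune diabetes and NZO/HlLtJ as a model of obesity. CAST/EiJ, PWK/PhJ and WSB/EiJ are wild-derived. No treatment, transgene or age was given in the sources used here, and nothing said whether the samples of a group came from separate litters. The p-values set differences against the spread between these samples, whose independence is therefore not known.

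Neurotrophins are secreted proteins that support the survival, growth and synapses of neurons. BDNF, encoded by Bdnf, acts mainly through the receptor tyrosine kinase TrkB (Ntrk2), and neurotrophin 3 (Ntf3) mainly through TrkC (Ntrk3). The pan-neurotrophin receptor encoded by Ngfr binds all neurotrophins and has a high affinity for their uncleaved precursors when it is paired with sortilin (Sort1), a sorting receptor that also carries proBDNF inside the cell. In the hippocampus Bdnf is made by excitatory neurons and is induced by neuronal activity, Ntf3 is best known from granule neurons of the dentate gyrus, and TrkB occurs in neurons and astrocytes. Ngfr marks the cholinergic neurons of the basal forebrain, whose axons reach the hippocampus while their cell bodies lie outside it.

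RNA was measured by bulk RNA sequencing, with 16607602 to 27759221 counts per library (median 22176356.5). Hippocampal genes were present in every library: Prox1, of dentate granule neurons, lay between 58.9 and 129.7 CPM (counts scaled to library size), and Rgs14, of CA2 neurons, between 88.8 and 162. Xist and Ddx3y matched the labelled sex in all 64 libraries. Markers of neighbouring tissue varied widely, since the summed level of 12 choroid plexus genes ran from 131 to 6912 CPM. In 2 libraries, 129S1/SvImJ female 1 and A/J male 2, the profile stood apart from the rest of the group, and both return below. In bulk RNA, fewer cells of a type and less RNA per cell cannot be told apart.

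Bdnf has several alternative first exons, each with its own promoter, and gene counts do not show which of them was used. RefSeq lists 7 Bdnf start windows, 2 for Ntf3, 1 for Ntrk2 and 1 for Ngfr in build GRCm38.p6, each running from 250 bases before a start to 50 after it. Each window was searched on both strands for the cyclic AMP response element TGACGTCA, its core TGACG, the EGR site GCGTGGGCG and the E-box CACGTG. The core overlaps the full element. Of the 7 Bdnf windows, 1 held the core, and 20.8% of all 32851 windows of this length did so. The full element was in 1.79%, the EGR site in 0.612% and the E-box in 7.15% of all windows. The E-box was found in the first Ntf3 window and in no other window of these genes. Shown here are the 250 bases before 3 of these starts, because Bdnf and Ntf3 are the members whose levels moved in opposite directions within CAST/EiJ (described with the values). Capitals mark the motif matches, which are descriptions of these letters and not binding sites.
Bdnf window 1, chr2:109674450-109674699, GRCm38.p6, plus strand: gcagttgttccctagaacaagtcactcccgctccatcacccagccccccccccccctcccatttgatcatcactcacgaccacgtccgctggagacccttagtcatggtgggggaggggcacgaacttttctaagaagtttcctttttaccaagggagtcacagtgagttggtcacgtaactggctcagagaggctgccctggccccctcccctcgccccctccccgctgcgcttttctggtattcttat
Bdnf window 3, chr2:109692186-109692435, GRCm38.p6, plus strand: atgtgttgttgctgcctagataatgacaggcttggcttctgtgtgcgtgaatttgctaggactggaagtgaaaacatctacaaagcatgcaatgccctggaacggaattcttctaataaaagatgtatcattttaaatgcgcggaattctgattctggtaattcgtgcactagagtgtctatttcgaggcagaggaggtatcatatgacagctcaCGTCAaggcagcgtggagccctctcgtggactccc
Ntf3 window 1, chr6:126166745-126166994, GRCm38.p6, minus strand: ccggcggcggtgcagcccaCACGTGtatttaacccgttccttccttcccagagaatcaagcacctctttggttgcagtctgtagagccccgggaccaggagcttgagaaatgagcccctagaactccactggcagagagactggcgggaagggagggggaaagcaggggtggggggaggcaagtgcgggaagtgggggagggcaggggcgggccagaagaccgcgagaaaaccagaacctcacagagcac
In Bdnf window 3 the match is the core read on the opposite strand, and it starts 35 bases before the start. In Ntf3 window 1 the E-box starts 231 bases before it.

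Across the 8 strains the ranges of most members lay near the middle of all genes tested. The share of genes with a wider range ran from 40.7% for Ngfr to 60.7% for Bdnf, and for Ntrk2 it was 83.5%. Log2 ranges of the strain means were 0.43 for Bdnf, 0.54 for Ntf3, 0.25 for Ntrk2, 0.52 for Ntrk3, 0.70 for Ngfr and 0.45 for Sort1, against a median of 0.55 over all genes tested. No member had both an adjusted p under 0.05 and a range of at least 1 (edgeR F test over the 8 strains), a pair of conditions that 27.6% of all genes met. With no minimum range 5 of the 6 members differed among strains, all but Ngfr, beside 89.2% of all genes. DESeq2 gave the same counts of 0 and 5, and 5 members had an unadjusted p under 0.05. Of the 48 comparisons of a member in a strain with the mean of the other 7 strains, 0 reached a log2 difference of at least 1 (0 with DESeq2, 0 at an unadjusted p under 0.05). The background of that call was 5.27%. At any size 19 of the 48 passed, close to the background of 42.3%, and 20 had an unadjusted p under 0.05. Over the 28 pairs of strains 51 of 168 member comparisons passed, and 41.1% of all comparisons of a gene in a pair did so.

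**Figure D1:**
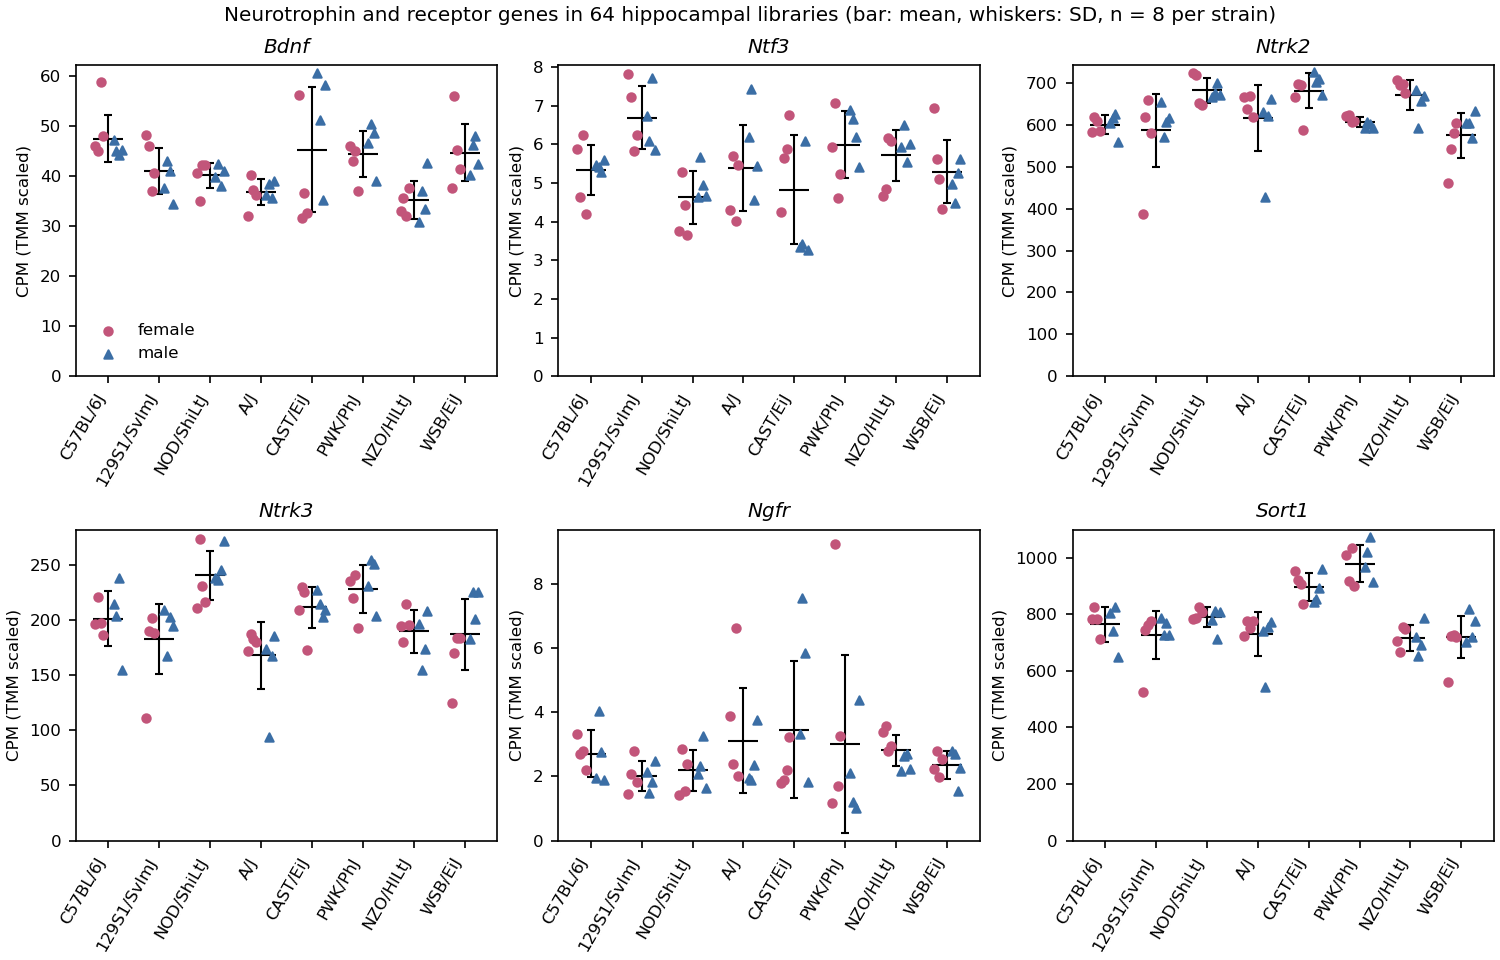
Level of each gene in each of the 64 libraries, in CPM scaled by TMM, by strain; circles are females, triangles males, bars the strain mean and whiskers the SD (n = 8). Sort1 is high in CAST/EiJ and PWK/PhJ, Bdnf and Ntf3 are spread widely in CAST/EiJ, and single libraries of 129S1/SvImJ, A/J and WSB/EiJ lie low for Ntrk2, Ntrk3 and Sort1.

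Per kilobase of annotated exon, Sort1 had the highest mean level of the 6 genes, 104 ± 14.4 CPM per kilobase (SD, n = 64). Ntrk2 followed at 32.5 ± 3.32. Bdnf at 6.73 ± 1.11 and Ntrk3 at 6.66 ± 1.11 were alike on this scale. Ntf3 stood at 3.20 ± 0.617 and Ngfr at 0.786 ± 0.416. The exon length counts every annotated isoform, 30170 bases for Ntrk3, so levels of genes with long alternative ends are understated.

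Bdnf was highest in C57BL/6J and lowest in NZO/HlLtJ. The C57BL/6J libraries ran from 44.1 to 58.6 CPM with a median of 45.6, and those of NZO/HlLtJ from 30.8 to 42.6 with a median of 34.5. These strains did not overlap. Here and for the genes below, such extremes were picked from these same values. How often all genes separate strains in this way is not given here. The order of strain means was C57BL/6J (47.4 ± 4.73, SD, n = 8 as for each strain mean here and below), CAST/EiJ (45.2 ± 12.4), WSB/EiJ (44.6 ± 5.68), PWK/PhJ (44.4 ± 4.57), 129S1/SvImJ (41.0 ± 4.66), NOD/ShiLtJ (40.1 ± 2.52), A/J (36.8 ± 2.52) and NZO/HlLtJ (35.2 ± 3.82). No neighbours in this order passed the test of their difference, while 9 of the 28 pairs did. C57BL/6J exceeded NZO/HlLtJ by 0.43 ± 0.09 on the log2 scale (SE, edgeR adjusted p = 1.22e-04). Against the mean of the other strains C57BL/6J was higher by 0.21 ± 0.07 (adjusted p = 0.0095). A/J was lower, at -0.20 ± 0.07 (adjusted p = 0.0214), and so was NZO/HlLtJ, at -0.27 ± 0.07 (adjusted p = 0.00153). The C57BL/6J call ended without its female 3 (0.17, adjusted p = 0.062), and the A/J call ended without its female 1 (-0.17, adjusted p = 0.075) or without the libraries rich in cholinergic markers (-0.18, adjusted p = 0.11). With the level of immediate early genes in the fit, NZO/HlLtJ was at -0.14 (adjusted p = 0.064).

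Ntf3 was highest in 129S1/SvImJ and lowest in NOD/ShiLtJ. Libraries of 129S1/SvImJ held 5.82 to 7.81 CPM (median 6.49), and those of NOD/ShiLtJ 3.65 to 5.66 (median 4.65). The 8 libraries of 129S1/SvImJ all lay above the 8 of NOD/ShiLtJ. Between them in order of mean stood PWK/PhJ (5.99 ± 0.865), NZO/HlLtJ (5.72 ± 0.657), A/J (5.38 ± 1.11), C57BL/6J (5.34 ± 0.654), WSB/EiJ (5.29 ± 0.813) and CAST/EiJ (4.83 ± 1.42), and again no neighbours passed. The difference between the extremes was 0.54 ± 0.12 (SE, adjusted p = 1.19e-04), and 8 of 28 pairs passed. Set against the other 7 strains, 129S1/SvImJ was higher by 0.34 ± 0.08 (adjusted p = 9.76e-04), NOD/ShiLtJ lower at -0.27 ± 0.09 (adjusted p = 0.0129) and CAST/EiJ lower at -0.22 ± 0.09 (adjusted p = 0.0324). The first pair of calls held under every setting run. Leaving out any of CAST/EiJ females 1 and 2 or males 1, 2 and 4 ended the CAST/EiJ call (adjusted p from 0.052 to 0.14), as did an additive model of strain and sex (0.070), dentate granule markers in the fit (0.19) and leaving out the 4 libraries of lowest length index (0.051). With immediate early genes in the fit it was -0.05 (adjusted p = 0.70). Leaving out CAST/EiJ male 3 instead gave -0.35 (adjusted p = 6.46e-04), and leaving out the 4 CAST/EiJ females gave -0.46.

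**Figure D2:**
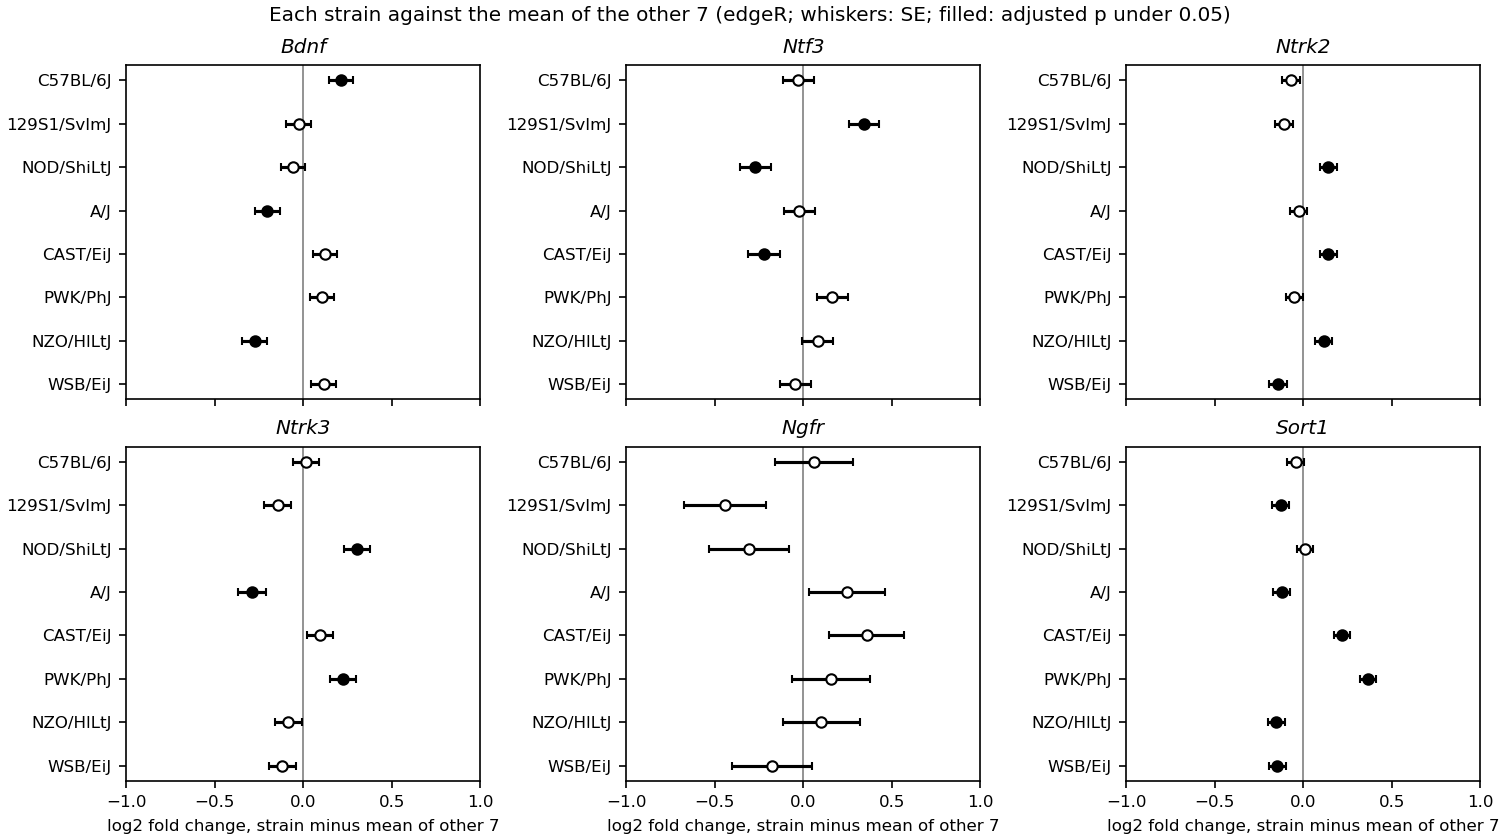
Log2 difference of each strain from the mean of the other 7, by gene; points are edgeR estimates, whiskers the SE, and filled points have an adjusted p under 0.05. The 19 filled points lie between -0.29 and 0.36, and Ngfr has none.

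Within CAST/EiJ the ligand genes ran in opposite directions. Bdnf was at 56.1, 31.7, 36.5 and 32.6 CPM in females 1 to 4 and at 60.6, 51.2, 35.1 and 58.1 CPM in males 1 to 4. Ntf3 in the same order was at 4.26, 5.65, 5.87 and 6.77 CPM in females and at 3.33, 3.41, 6.08 and 3.25 CPM in males. The 4 libraries above 50 CPM for Bdnf, female 1 and males 1, 2 and 4, were the 4 lowest for Ntf3. The highest Bdnf value of CAST/EiJ was 1.91 times its lowest, against 1.21 to 1.49 times in the other strains, and for Ntf3 the ratio was 2.08 against 1.34 to 1.85. Over the 56 libraries of the other strains Bdnf and Ntf3 had a Pearson correlation of 0.13 (Spearman 0.13), given as a description of libraries that share strain and depth effects. As the CAST/EiJ values fall in separate clusters, no correlation is given there.

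Some genes induced by neuronal activity were high in those same 4 CAST/EiJ libraries, named here after their values were seen. Egr3, an activity-induced transcription factor, was at 132, 84.6, 95.7 and 84.2 CPM in females 1 to 4 and at 119.7, 169, 87.8 and 176 in males 1 to 4. Fosb, another such factor, was at 19.8, 5.95, 5.91 and 5.28 in females and at 10.2, 18.9, 6.18 and 25.4 in males. Both genes were higher in each of the 4 libraries than in any of the other 4. Homer1, a synaptic scaffold gene with an activity-induced short form, ran likewise from 182 to 251 CPM against 106 to 139. Others did not follow the same split. Of 11 such genes examined, Egr1, Egr3, Egr4, Fosb, Homer1 and Vgf were higher in male 1 than in female 4, and the 5 others, Arc, Egr2, Fos, Junb and Npas4, were lower there (Fos at 8.08 and 10.7 CPM). Apart from the fits with the immediate early genes as a covariate, the part of these genes in the Bdnf and Ntf3 levels was not tested.

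**Figure D3:**
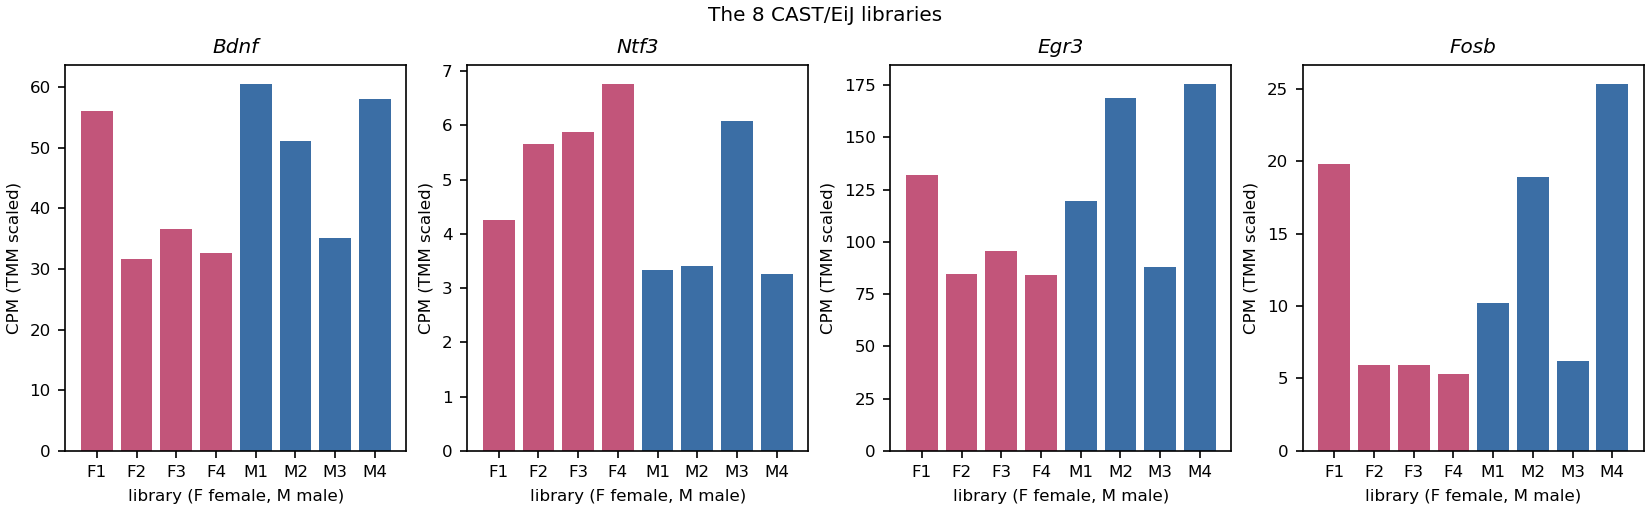
Bdnf, Ntf3, Egr3 and Fosb in the 8 CAST/EiJ libraries, in CPM scaled by TMM (bars are single libraries, F female and M male). Bdnf, Egr3 and Fosb are high in female 1 and males 1, 2 and 4, where Ntf3 is at 4.26 CPM or less.

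Ntrk2, the TrkB gene, had the narrowest range of the family. NOD/ShiLtJ libraries lay at 649 to 725 CPM (median 673), and WSB/EiJ libraries at 460 to 633 (median 593). Every NOD/ShiLtJ library exceeded every WSB/EiJ library. NOD/ShiLtJ (682 ± 28.9), CAST/EiJ (682 ± 42.6) and NZO/HlLtJ (672 ± 36.0) led the order, followed by A/J (617 ± 79.0), PWK/PhJ (607 ± 11.4), C57BL/6J (600.1 ± 22.6), 129S1/SvImJ (587 ± 86.8) and WSB/EiJ (575 ± 53.9). No neighbours passed, and 11 of 28 pairs did. Log2 differences from the other strains were 0.14 ± 0.05 in NOD/ShiLtJ (adjusted p = 0.0142), 0.14 ± 0.05 in CAST/EiJ (adjusted p = 0.0102), 0.12 ± 0.05 in NZO/HlLtJ (adjusted p = 0.0489) and -0.14 ± 0.05 in WSB/EiJ (adjusted p = 0.0150). The WSB/EiJ call ended without its female 1 (-0.10, adjusted p = 0.098) and with cholinergic markers in the fit (-0.12, adjusted p = 0.052), and was at -0.07 with the length index in the fit, where it still passed. The CAST/EiJ call ended without the libraries rich in cholinergic markers (0.12, adjusted p = 0.20), and the NZO/HlLtJ call ended in 11 of the 18 other settings and in 53 of the 64 runs without a library. Gene counts sum the full-length and truncated TrkB forms, so a shift between them is not seen here.

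Ntrk3, the TrkC gene, was highest in NOD/ShiLtJ and lowest in A/J. The NOD/ShiLtJ values ran from 211 to 273 CPM (median 237), and the A/J values from 94.1 to 187 (median 177), with no overlap. In order of mean the strains were NOD/ShiLtJ (240.1 ± 22.6), PWK/PhJ (228 ± 21.7), CAST/EiJ (211 ± 18.4), C57BL/6J (201 ± 25.0), NZO/HlLtJ (189 ± 19.3), WSB/EiJ (187 ± 32.4), 129S1/SvImJ (183 ± 31.7) and A/J (168 ± 30.5). No neighbours passed here either, while 11 of 28 pairs did. NOD/ShiLtJ exceeded A/J by 0.52 ± 0.10 (SE, adjusted p = 2.40e-05). Against the other strains NOD/ShiLtJ was higher by 0.31 ± 0.07 (adjusted p = 6.72e-04), PWK/PhJ higher by 0.22 ± 0.07 (adjusted p = 0.00885) and A/J lower at -0.29 ± 0.08 (adjusted p = 0.00263). The NOD/ShiLtJ and A/J calls held under every setting. That of PWK/PhJ fell to 0.09 with the balance of long and short transcripts in the fit (adjusted p = 0.0343), and with meningeal markers in the fit it was 0.17 (adjusted p = 0.066).

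Ntrk2, Ntrk3 and Sort1 shared their lowest libraries. A length index was set for each library as the mean log2 level of the 10% of tested genes with the longest exons minus that of the 10% with the shortest, centred over libraries. It was lowest in A/J male 2 (-0.71), 129S1/SvImJ female 1 (-0.70), WSB/EiJ female 1 (-0.67) and C57BL/6J male 4 (-0.44). The 129S1/SvImJ female 1 library had 386 CPM of Ntrk2, 111 of Ntrk3 and 524 of Sort1, while the other 7 libraries of that strain started at 572, 167 and 725. A/J male 2 had 428, 94.1 and 544 against lowest values of 619, 167 and 723 in the rest of A/J, and WSB/EiJ female 1 had 460, 124 and 561 against 542, 169.7 and 701. Ntf3 went the other way in these 3 libraries, at 7.81, 7.42 and 6.93 CPM, each above all other libraries of its strain. In C57BL/6J male 4 it did not, at 5.58 CPM inside the 4.20 to 6.25 of the rest of that strain. Bdnf had no shared direction: it was the highest of its strain in 129S1/SvImJ female 1 (48.2 CPM, the others at 34.4 to 46.0), the lowest in WSB/EiJ female 1 (37.6, the others at 40.2 to 55.9) and inside the range of the rest in A/J male 2 (38.4).

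Over the 64 libraries the Pearson correlation with the index was 0.73 for Ntrk2, 0.78 for Ntrk3 and 0.72 for Sort1, and 0.01 for Bdnf, -0.31 for Ntf3 and 0.05 for Ngfr. Without the 4 lowest libraries it was 0.18, 0.40 and 0.48 for the first 3 genes, so the values over 64 libraries rest largely on those libraries. After the mean of each strain and sex group was subtracted, it was 0.87, 0.90 and 0.89 over all 64. That within-group value was not taken without the 4 libraries. The points share strain and library quality, and the part of the index in the strain differences was measured only by fits with and without it. Without the 4 libraries the range of strain means remained called for each of the 5 members called with them. Per strain, the mean index ran from -0.10 in WSB/EiJ to 0.12 in PWK/PhJ.

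**Figure D4:**
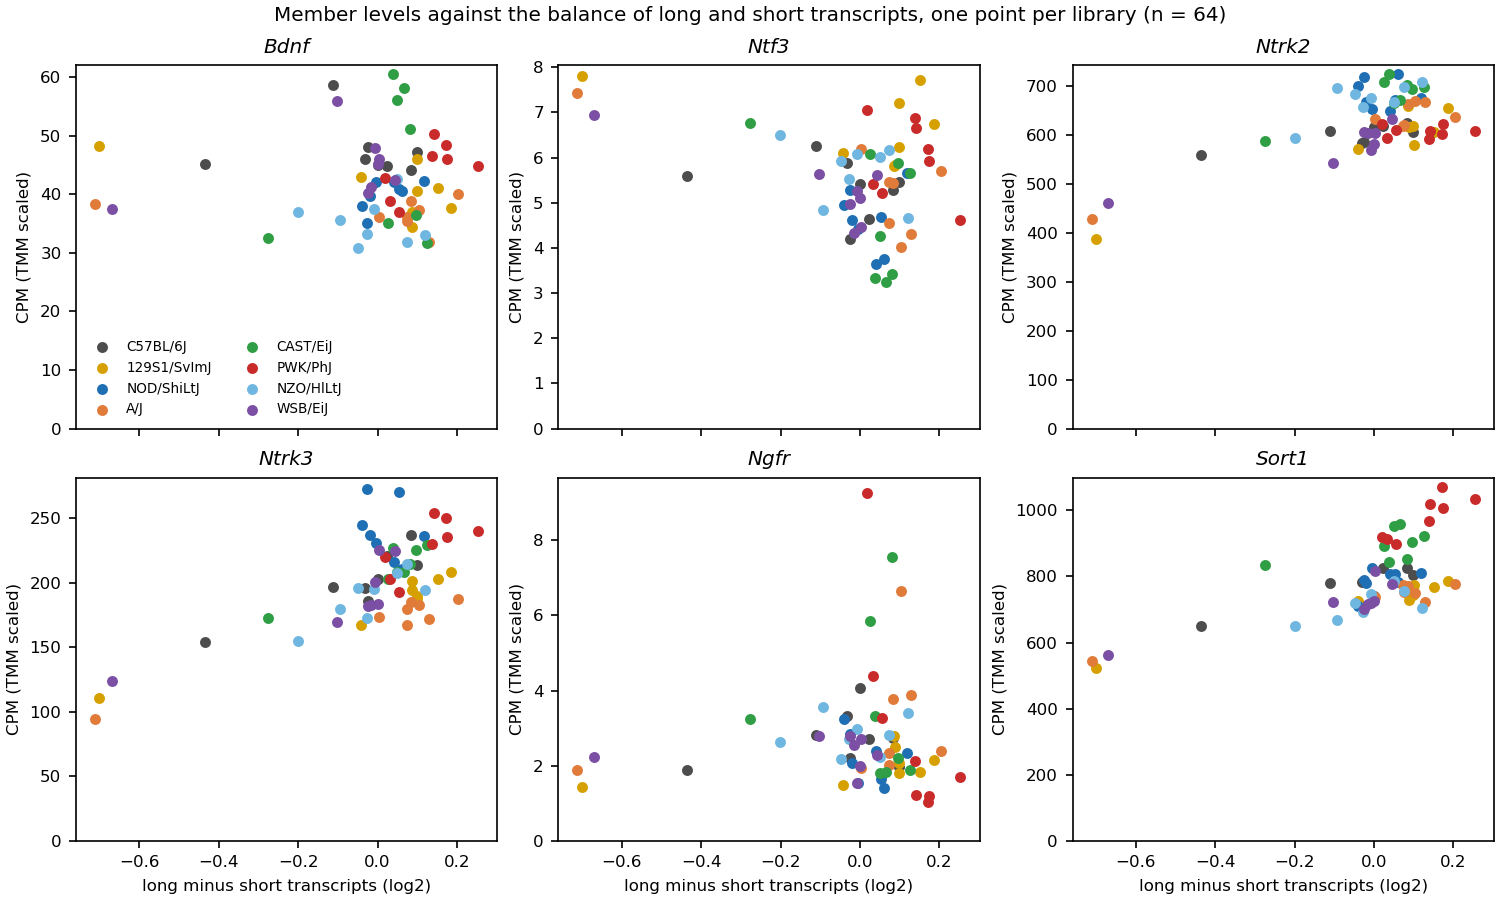
Level of each gene (CPM scaled by TMM) against the length index of the library (log2 level of long minus short transcripts), coloured by strain, n = 64. Each of the 4 libraries at an index under -0.4 is the lowest of its strain for Ntrk2, Ntrk3 and Sort1, while for Bdnf only that of WSB/EiJ is.

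Ngfr was the member with the lowest level per length and the widest spread between libraries. Strain means were CAST/EiJ 3.46 ± 2.14, A/J 3.11 ± 1.64, PWK/PhJ 3.02 ± 2.78, NZO/HlLtJ 2.81 ± 0.495, C57BL/6J 2.71 ± 0.726, WSB/EiJ 2.36 ± 0.443, NOD/ShiLtJ 2.19 ± 0.650 and 129S1/SvImJ 2.01 ± 0.466 CPM. The strains did not pass the F test (adjusted p = 0.25), and 0 of 28 pairs differed. Libraries of PWK/PhJ ran from 1.02 to 9.26 CPM (median 1.91), those of CAST/EiJ from 1.80 to 7.56 (median 2.72) and those of A/J from 1.88 to 6.65 (median 2.37). Counts per library were 20 to 202. Without the CAST/EiJ females the F test passed (range 1.22, adjusted p = 0.043).

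The libraries with the highest Ngfr were also high in markers of cholinergic neurons, with exceptions. A list of 6 cholinergic markers held Chat, Slc5a7 and Slc18a3, for the synthesis, choline uptake and vesicular transport of acetylcholine, and the transcription factors Lhx8, Gbx1 and Isl1. Their summed level ran from 0.213 to 18.7 CPM with a median of 0.902, and all 6 passed the filter. Chat had no count in 21 libraries and Lhx8 none in 34. PWK/PhJ female 2 had the highest Ngfr (9.26) and the highest sum (18.7), followed on both by CAST/EiJ male 2 (7.56 and 14.8), A/J female 3 (6.65 and 12.7) and CAST/EiJ male 3 (5.84 and 7.87). The fifth Ngfr value, 4.39 in PWK/PhJ male 4, came with a sum of 0.541, which is rank 52 of 64. CAST/EiJ female 4, at rank 15 for Ngfr (3.24), had the lowest sum of all, 0.213.

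Libraries with a marker sum over 5 times the median numbered 8, and Ngfr was at 3.33 to 9.26 CPM in them (median 4.95) against 1.02 to 4.39 in the other 56 (median 2.22). They were C57BL/6J male 2, A/J females 1 and 3, CAST/EiJ males 1, 2 and 3, PWK/PhJ female 2 and NZO/HlLtJ female 2. Without them the Ngfr range among strains was 0.44 (adjusted p = 0.56), and with the markers in the fit 0.52 (adjusted p = 0.20). Over 64 libraries Ngfr and the marker sum had a Pearson correlation of 0.74 (Spearman 0.60), and over the 56 libraries 0.40 (Spearman 0.41). The summed level of 10 striatal genes had a Pearson correlation of 0.70 with Ngfr on the log scale, and its part in the Ngfr level was not tested.

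**Figure D5:**
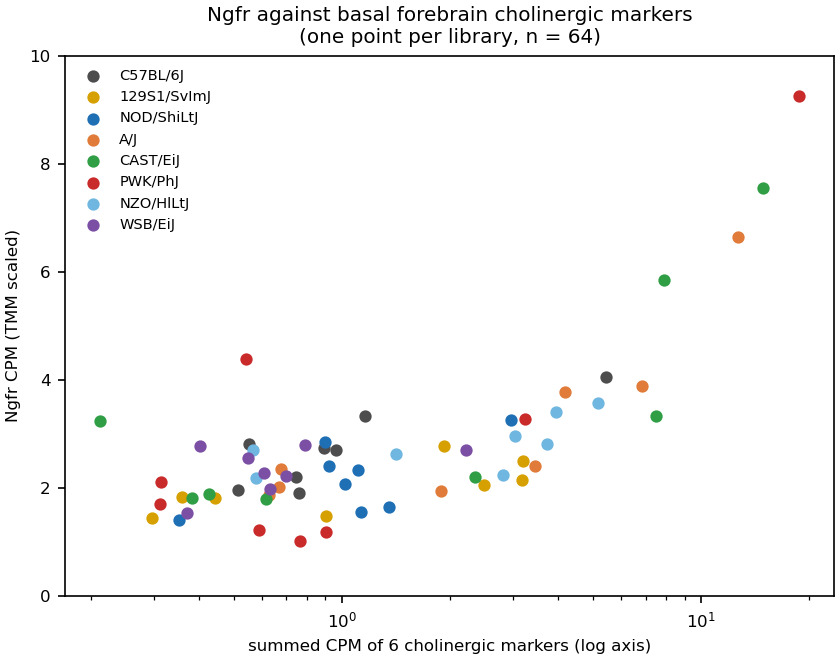
Ngfr (CPM scaled by TMM, linear axis) against the summed CPM of 6 cholinergic markers (log axis) in the 64 libraries, coloured by strain. The 4 highest Ngfr values, from 5.84 to 9.26 CPM, belong to the 4 libraries with the highest marker sum.

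Sort1, the sortilin gene, had the smallest p of the 6 members in the F test over strains (edgeR, adjusted p = 3.09e-10), and strain held 63.4% of its variance. The median strain share over all genes tested was 51.1%. Of all genes 31.4% had a smaller p in this test, and 58.3% had a wider range than Sort1. PWK/PhJ libraries ran from 898 to 1072 CPM (median 988.1), CAST/EiJ libraries from 834 to 959.2 (median 899), and NZO/HlLtJ libraries from 651 to 787 (median 713). All 16 libraries of CAST/EiJ and PWK/PhJ lay above all 48 of the other strains, whose highest value was 825 CPM in C57BL/6J. The lowest of the 16 was at 834 CPM. This grouping of strains was picked from these same values. How often all genes separate strains in this way is not given here. After PWK/PhJ (979.04 ± 64.3) and CAST/EiJ (896 ± 48.2) came NOD/ShiLtJ (789 ± 35.1), C57BL/6J (765 ± 61.5), A/J (729 ± 77.2), 129S1/SvImJ (726 ± 84.6), WSB/EiJ (718 ± 73.8) and NZO/HlLtJ (716 ± 46.1). CAST/EiJ and NOD/ShiLtJ were the only neighbours that differed among the 42 neighbour comparisons of the 6 genes, by 0.18 (adjusted p = 0.0153). PWK/PhJ and CAST/EiJ did not pass that test (0.13, adjusted p = 0.097).

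Against the mean of the other strains Sort1 was higher by 0.36 ± 0.05 in PWK/PhJ (adjusted p = 8.45e-10) and by 0.22 ± 0.05 in CAST/EiJ (adjusted p = 6.11e-05), and both calls held under every setting run. NZO/HlLtJ (-0.15), WSB/EiJ (-0.15), 129S1/SvImJ (-0.13) and A/J (-0.12) passed on the lower side, with adjusted p from 0.0095 to 0.0422, each measured against a mean that holds the 2 high strains. Without CAST/EiJ and PWK/PhJ the range of the other 6 strains was 0.15 (adjusted p = 0.23), and none of these 4 calls remained. Single libraries also ended them. The 129S1/SvImJ call was at -0.07 without its female 1 (adjusted p = 0.25) and ended without its male 2 or male 4. The WSB/EiJ call was at -0.11 without its female 1 (adjusted p = 0.082), and at -0.08 with the length index in the fit, where it still passed. The A/J call ended in 30 of the 64 runs without a library and in 8 of the 18 other settings, and the NZO/HlLtJ call with meningeal markers in the fit (-0.10, adjusted p = 0.13). The genome to which the reads of each strain were aligned is not given in the sources used here.

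No member passed the test of females against males. The female minus male difference over the 8 strains ran from -0.05 ± 0.05 for Ntrk3 to 0.09 ± 0.15 for Ngfr (log2 ± SE). Its 95% interval was -0.13 to 0.05 for Bdnf, -0.07 to 0.06 for Ntrk2 and -0.07 to 0.06 for Sort1. The edgeR test called 0 of 6 (0 with DESeq2, 0 at an unadjusted p under 0.05), where 0.167% of all genes were called. For the interaction of strain and sex, 0 of 6 passed (0 with DESeq2), 1 had an unadjusted p under 0.05, and 0.046% of all genes were called. That gene was Ntf3, with an adjusted p of 0.47.

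Within CAST/EiJ Bdnf was at 39.2 CPM in females and 51.2 in males (-0.39 ± 0.13, SE, edgeR adjusted p = 0.32), and Ntf3 at 5.64 and 4.02 (0.49 ± 0.17, adjusted p = 0.33). The sexes overlapped for both genes, as female 1 sided with most males and male 3 with most females. CAST/EiJ females also carry sample numbers 639 to 643, apart from the 311 to 462 of all other samples, so sex and number block cannot be told apart in that strain. Ngfr averaged 2.28 CPM in CAST/EiJ females and 4.64 in males (adjusted p = 0.43), and its 3 highest CAST/EiJ libraries were the males rich in cholinergic markers.

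Ntf5, for neurotrophin 4, stood at a low level. It had 4 to 14 counts per library in WSB/EiJ (0.439 ± 0.176 CPM) and 0 to 4 in PWK/PhJ (0.106 ± 0.0719 CPM). Its range of 2.11 passed the test (adjusted p = 6.27e-04) and rests on these few counts.

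Of 150 other genes of neurotrophin pathways in 8 lists, 145 were tested and 21 (14.5%) had an adjusted p under 0.05 and a range of at least 1, beside 27.6% of all genes. Their median range was 0.42, and without CAST/EiJ 13 were called. No gene was called among 14 sortilin family members and partners of the Ngfr receptor, 25 Trk adaptors and transport genes, and 32 downstream kinases, where 11, 24 and 29 passed at any range. At any range 89.2% of all genes passed. Of 15 tested genes for processing and secretion 3 were called. Among them were Mmp9, a protease that can cleave proBDNF (2.91 ± 0.712 CPM in WSB/EiJ, 1.09 ± 0.183 in PWK/PhJ), and Plau, the urokinase plasminogen activator (4.15 ± 0.761 in CAST/EiJ, 1.87 ± 0.593 in A/J). Of 18 regulators of Bdnf transcription only Npas4, an activity-induced transcription factor, was called (8.45 ± 4.41 in CAST/EiJ, 2.9955 ± 0.650 in C57BL/6J).

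Among 20 genes that BDNF induces in neurons 8 (40%) were called, beside 27.6% of all genes. Egr2 was at 5.30 ± 4.92 CPM in CAST/EiJ and 0.904 ± 0.351 in C57BL/6J, and Fos at 12.6 ± 7.89 in CAST/EiJ and 3.96 ± 1.62 in NOD/ShiLtJ. Cort, for the interneuron peptide cortistatin, had 4.69 ± 0.970 CPM in C57BL/6J and 0.895 ± 0.238 in PWK/PhJ. Single CAST/EiJ libraries ran from 1.30 to 13.9 CPM for Egr2 and from 4.39 to 28.4 CPM for Fos. Of 18 other trophic factors and receptors 7 (38.9%) were called, beside the same 27.6%. Igf2, an insulin-like growth factor of meninges and choroid plexus, was at 154 ± 73.5 CPM in NZO/HlLtJ and 39.5 ± 33.2 in PWK/PhJ. Fgf1, a fibroblast growth factor, was at 124 ± 8.79 in PWK/PhJ and 38.3 ± 2.16 in WSB/EiJ, and Cdnf, a neurotrophic factor of the endoplasmic reticulum, at 2.53 ± 0.406 in PWK/PhJ and 0.812 ± 0.192 in WSB/EiJ. Summed meningeal markers were likewise highest in NZO/HlLtJ (640.4 ± 243 CPM) and lowest in PWK/PhJ (209.7 ± 154), and their part in the Igf2 difference was not tested.

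The protein-coding genes most like each member over the 64 libraries were found by Pearson correlation of log2 CPM. For Bdnf they were Egr3 (0.70), Lrrc10b (0.70) and Ppp3r1 (0.69), and for Ntf3 they were Rpl15 (0.68), Car11 (0.64) and Spop (0.63). Ntrk2 was most like Zmiz1 (0.88), Kcnd3 (0.87) and Slc38a1 (0.87), Ntrk3 most like Vps13d (0.94), Scn8a (0.92) and Mbd5 (0.92), and Sort1 most like Nsd1 (0.92), Braf (0.92) and Hectd4 (0.91). Ngfr was most like Chat (0.76), Gbx1 (0.73) and Lhx8 (0.72), all 3 of them on the cholinergic list. Among the members themselves Ntrk3 and Sort1 (0.77) and Ntrk2 and Ntrk3 (0.72) had the highest correlations. These values describe libraries that share strain, depth and the length index.

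Markers of 15 cell types and tissues were set beside the members. Of the 90 Pearson correlations over 64 libraries between a member and the mean log2 level of a list, 6 were beyond 0.5 in size. They were Ngfr with cholinergic neurons (0.78) and striatum (0.70), Ntrk2 (0.63) and Ntrk3 (0.56) with oligodendrocyte precursors, and Sort1 with interneurons (-0.57) and astrocytes (0.55). After the mean of each strain and sex group was subtracted, these were 0.76, 0.69, 0.51, 0.45, -0.53 and -0.02 in the same order. The value of Sort1 with astrocytes thus lay between groups and not within them. The other lists were dentate granule neurons, CA1 and CA2 to CA3 pyramidal neurons, thalamus and habenula, neocortex, choroid plexus, meningeal fibroblasts, vascular cells, oligodendrocytes and microglia. The rest of the correlations over 64 libraries lay between -0.45 and 0.49. Some were larger within groups, such as Ntrk2 with microglia (-0.69 against 0.02) and Sort1 with dentate granule neurons (0.65 against -0.39). So were Ngfr with thalamus and habenula (0.61 against 0.31) and Ngfr with choroid plexus (0.53 against 0.45). A/J male 2, 129S1/SvImJ female 1 and WSB/EiJ female 1, the libraries of lowest length index, were also extreme for some lists. Their precursor sums were 391, 421 and 412 CPM (median of 64 libraries 557). Interneuron sums were 1291, 1360 and 1402 (median 1157), and dentate granule sums 364, 402 and 346 (median 470). The part of these libraries in the correlations was not tested. The part of the 15 lists in the strain differences was not tested beyond the covariates named.

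Overlapping genes present in the count table had fewer counts than the members they overlap. Some overlapping genes were not in the table and have no level. Gm9885, antisense to Ntrk3 with 0 shared exonic bases, had the highest level of them, 3.92 CPM on average against 201 for Ntrk3. Where strand was not used in counting, reads of antisense genes cannot be separated: Gm45346, antisense to Bdnf with 896 shared exonic bases, averaged 0.110 CPM, and Gm12523, antisense to Sort1 with 338, averaged 0.0472 CPM.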

How the data were processed

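The values start from gene counts of the 64 samples as deposited by the authors in 1 table, whole numbers without normalization. The table's name gives Ensembl release 105, and the submitters' processing notes name the build GRCm39. The aligner, the counting tool, the use of strand and the genome used for each strain are not given in the sources used here. Per the labels' protocols, total RNA was prepared with TRIzol and a DNase step and libraries with a TruSeq kit. Columns were matched to samples by name, and 0 were left unused. For 50 columns the name equals the start of a sample title, and for 14 the title's number has 1 digit more than the column's. Each of the 64 names begins 1 title only.

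Counts were analysed with edgeR 4.0.16 in R 4.3.3. The filterByExpr rule (a count of 10, a total of 15) kept 17382 of 32227 genes. A model of 16 group means with TMM scaling and robust quasi-likelihood tests left 48 residual degrees of freedom, and p-values were adjusted by the Benjamini-Hochberg method over all genes tested (once over all 28 pairs), with a threshold of 0.05. CPM are counts scaled to the TMM-adjusted library size, as edgeR gives them, and DESeq2 1.42.0 served as another tool. The tests were tried on simulated data. The precision of a value follows its counts, from 20 to 202 per library for Ngfr to 11969 to 26039 for Sort1. SDs are between libraries. Replicate numbers follow deposition order and only name samples.

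Symbols, exon lengths and overlaps came from GENCODE M21, matched by identifier. Promoter sequences came from RefSeq (GRCm38.p6), an earlier build than that of the counts, and no coordinates were converted. The members and all gene lists were chosen with earlier results of these data known. All 6 members and Ntf5 are named, with up to 3 called genes of widest range per pathway list and the 3 most correlated protein-coding genes per member. Some genes that this rule names are not reported here. Other genes that are named were chosen after their values were seen. The alternatives were other scalings, filters, tools, fold minimums, covariates and libraries left out. Those on the length index, cholinergic markers, immediate early genes and the removal of whole strains were added after seeing the data. Marker lists covered 15 cell types and tissues.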

Additional observations from a re-analysis of the deposited data

Results flagged for a closer look

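A library was picked out where its value lay further from the rest of its group than Dixon's test at 95% allows, over 144 groups of 4 or 8 libraries. This gave 19 such values, where chance gives about 1 in 20 groups, and 11 of them came from the 3 libraries with the lowest length index. The groups of 4 lie within those of 8, and some library values were counted in both. The 19 are therefore not separate events.

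Low values came first from libraries with few long transcripts. 129S1/SvImJ female 1 was picked out for Ntrk2 (386 CPM), Ntrk3 (111 CPM, within its sex and its strain) and Sort1 (524 CPM, within both). A/J male 2 was picked out for Ntrk2 (428 CPM), Ntrk3 (94.1 CPM) and Sort1 (544 CPM, within both). WSB/EiJ female 1 was picked out for Sort1 (561 CPM, within both).

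CAST/EiJ female 4 was low for Ntrk2 (587 CPM) and Ntrk3 (173 CPM), NZO/HlLtJ male 2 for Ntrk2 (593 CPM) and NOD/ShiLtJ male 3 for Sort1 (711 CPM).

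High values were Bdnf in C57BL/6J female 3 (58.6 CPM, the others at 44.1 to 48.02), Ntf3 in CAST/EiJ male 3 (6.08 CPM, the other males at 3.25 to 3.41), and Ngfr in A/J female 3 (6.65 CPM) and PWK/PhJ female 2 (9.26 CPM).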

How the results depend on the processing

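Of the 19 calls of a member in a strain, 7 held under each of the alternatives that gave a value and under each of the 64 runs without a library, and 12 ended in at least 1 of them. Leaving out 1 library at a time gave 16 to 19 such calls, 5 members differing at any range, 0 at a range of at least 1, and 18 to 23 pathway genes. The count of members with a range of at least 1 was 1 without the CAST/EiJ females and 2 with a minimum of 0.5. Calls in a strain numbered 10 without CAST/EiJ and PWK/PhJ. Pathway genes numbered 51 with a minimum of 0.5, 13 without CAST/EiJ and 9 without both strains, against 21. With dentate granule markers as a covariate, a list with genes that themselves differ among strains, ranges grew to 0.52 for Ntrk2, 0.93 for Ntrk3 and 0.85 for Sort1, and Bdnf in C57BL/6J was at 0.10 (adjusted p = 0.52).

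Female minus male differences near 0 changed sign without being called: Bdnf to 0.0125 without the CAST/EiJ females, 0.0117 without CAST/EiJ and 0.0345 without both strains, Ntf3 to 0.0325 without the libraries rich in cholinergic markers and 0.0184 with immediate early genes, and Ntrk2 to 0.00462 and 0.00375 without the CAST/EiJ females and without CAST/EiJ. Without a single library they ran from -0.0221 to 0.159 for Ngfr, -0.0380 to 0.0123 for Ntf3, -0.0228 to 0.00991 for Ntrk2 and -0.0195 to 0.00760 for Sort1. The cause was not tested. Pairs were not rerun without single libraries. No paired analysis was possible because replicate numbers follow deposition order and pair no samples. Depth limits Ngfr and Ntf5.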
